A study of Homo sapiens with 8 samples.

Results

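The genes described here are 9 genes around the tumour suppressor p53, among the 20033 protein-coding genes of the annotation. They encode the p53-binding protein 53BP1 (TP53BP1), the p53 inhibitors MDM2 and MDM4, the p53 targets CDKN1A, DDB2, BAX, BBC3 and GADD45A, and the RNA-binding protein of WRAP53. They were chosen by name, because PHF20 is known to act on p53. For each gene, every peak of PHF20 and PHF20L1 in a promoter window or in the gene body was listed.

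p53 is a transcription factor that is kept at a low level by MDM2, the ubiquitin ligase that marks it for destruction, and held inactive by the related protein MDM4. After DNA damage it is modified and stabilized, and it activates genes for cell cycle arrest, DNA repair and apoptosis. Lysine methylation is one of these modifications, and PHF20 reads dimethylated p53 through a Tudor domain, a fold that 53BP1 also uses to bind methylated lysines. PHF20 and its homolog PHF20L1 are also subunits of the nonspecific lethal (NSL) complex, which carries the acetyltransferase KAT8 to promoters of active genes.

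The data were ChIP-Seq peaks, that is, regions where DNA recovered with an antibody against the hemagglutinin (HA) tag gave more reads than input DNA. All 8 libraries came from U2OS, a human osteosarcoma line with functional p53, in which a 3xHA-tagged protein was overexpressed. PHF20, tagged at its N terminus, was covered by 2 ChIP libraries and 1 input library. PHF20L1 was covered by 3 ChIP libraries, 1 with an N-terminal and 2 with a C-terminal tag, and by 2 input libraries, 1 for each tag. Cells were sorted by GFP before the experiment, and neither DNA damage nor a p53-activating drug is named in the labels. The peaks therefore belong to ectopic, tagged proteins, and the activity of p53 in these cells was not measured here.

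The authors combined the libraries of each protein into 1 final list, with 4147 peaks for PHF20 and 723 for PHF20L1. A list holds only the start and end of each peak in hg38. It gives no height, no read count, no depth and no value per replicate, so no spread between replicates could be computed and no test was made. Each listed peak was called in the library with the best signal and overlapped a call in another library. A gene with no peak is therefore a gene with no call at the thresholds used, and weaker binding to it cannot be judged from the lists. Per the methods, the other libraries were called at a looser p-value threshold than the best one. Whether a listed peak is a false call cannot be judged from the lists either. A promoter peak was any peak sharing at least 1 bp with the interval that begins 1000 bp before and ends 500 bp after the transcription start site (TSS) of any GENCODE transcript of the gene.

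A promoter peak was found at 3 of the 9 genes. PHF20 was called at MDM4 and at BAX, the pore-forming protein that opens the mitochondrial outer membrane in apoptosis. PHF20L1 was called at DDB2, the subunit of the damaged-DNA-binding complex that recognizes ultraviolet lesions. No gene had peaks of both proteins, and 0 of 9 allows a share of up to 33.3%. Promoter peaks of both were found at only 747 of the 20033 protein-coding genes. The other 6 genes had no peak of either protein, in a promoter window or elsewhere in the gene body. Most protein-coding genes, 15866 of 20033, likewise had no promoter peak of either. None of the 9 genes had a gene-body peak outside its promoter windows. The PHF20 share, 2 of 9 genes (22.2%, Wilson 95% interval 6.32% to 54.7%), stood beside a background of 20.7% of all protein-coding genes. The PHF20L1 share, 1 of 9 (11.1%, 1.99% to 43.5%), stood beside 3.82%. These intervals cover counting error only, and with 9 genes both include the background.

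The sequences of the called promoters are shown because they differ in which of the motifs searched they hold. All are from hg38, plus strand, 5′ to 3′. Each upstream stretch, of at most 300 bp outside annotated exons, was picked within the peak for the most motif matches. The further sites were printed because they hold a match. The motif content shown is therefore selected. Motif letters are in capitals, as written or as the reverse complement. Positions are distances from the outermost annotated TSS of the gene.

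The MDM4 stretch, chr1:204516017-204516316, runs from -362 to -63 inside the PHF20 peak and opens with the reverse complement of GATGGCGGC, the core letters of a YY1 site:
MDM4: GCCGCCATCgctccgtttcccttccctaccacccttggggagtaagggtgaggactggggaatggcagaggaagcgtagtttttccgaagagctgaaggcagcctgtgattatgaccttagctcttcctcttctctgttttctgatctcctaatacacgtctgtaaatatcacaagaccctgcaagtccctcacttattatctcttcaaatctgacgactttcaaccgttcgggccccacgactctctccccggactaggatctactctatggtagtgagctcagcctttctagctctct

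A further site in MDM4, chr1:204516378-204516407, from -1 to 28, holds the reverse complement of the ETS-type sequence ACTTCCGG:
MDM4 site: cgtgtgggaggCCGGAAGTtgcggcttcat

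The BAX stretch, chr19:48954515-48954814, runs from -300 to -1 inside the PHF20 peak and holds CAAT boxes as well as a pair of palindromic E-boxes that match CACGTGAC on both strands:
BAX: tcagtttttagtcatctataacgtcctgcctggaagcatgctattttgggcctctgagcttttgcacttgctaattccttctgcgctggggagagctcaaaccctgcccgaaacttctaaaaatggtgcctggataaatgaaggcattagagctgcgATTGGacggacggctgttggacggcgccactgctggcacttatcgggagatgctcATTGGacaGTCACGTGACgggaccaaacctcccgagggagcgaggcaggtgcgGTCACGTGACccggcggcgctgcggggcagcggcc

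A further match of BAX to CACGTGAC, in chr19:48954850-48954879, from 35 to 64, lies past the outermost TSS:
BAX site: agcggggctctCACGTGACccgggcgcgct

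The DDB2 stretch, chr11:47214356-47214464, runs from -109 to -1 and is the whole part of the PHF20L1 peak that lies upstream of the gene. Its capitals are CAAT boxes:
DDB2: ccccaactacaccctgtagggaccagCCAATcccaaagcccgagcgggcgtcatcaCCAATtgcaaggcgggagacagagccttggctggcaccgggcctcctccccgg

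MDM4 (ENSG00000198625.14), the MDM2 relative that masks the transactivation domain of p53, lies on chromosome 1 from 204516379 to 204558120, plus strand. The PHF20 peak there ran from 204515902 to 204516722. Its width of 821 bp lay at percentile 70.0 of the PHF20 list, whose median was 599 bp, and 1244 PHF20 peaks were wider. It reached 477 bp upstream and 343 bp downstream of the outermost TSS, with its centre at position -67. The peak contained 5 of the 10 annotated TSSs of MDM4, that of the canonical transcript at 204516406 included, and 11 of its 16 transcripts start inside it. The annotated exons took up 131 bp of the peak, so most of it was upstream sequence and first intron. No other gene had a promoter window that reached this peak. The nearest PHF20L1 peak was 579 kb away, near RBBP5.

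BAX (ENSG00000087088.21) lies on chromosome 19 from 48954815 to 48961798, plus strand. Its PHF20 peak ran from 48954126 to 48955106 and was 981 bp wide, at percentile 81.1 of the list, with 785 wider peaks. It reached further upstream than downstream of the outermost TSS, 689 bp against 291 bp, and its centre lay at position -199. It contained 4 of the 6 annotated TSSs, among them the canonical one at 48954875, and 10 of 12 transcripts start in it. Annotated exons covered 292 bp of it, and it reached no promoter window of another gene. The nearest PHF20L1 peak, near CACNG8, was 5006 kb away.

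Among the 3475 PHF20 peaks that overlapped no PHF20L1 peak, the median width was 538 bp. Within this class MDM4 lay at percentile 76.6 and BAX at percentile 86.6. Both peaks thus lay above the middle of this class.

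DDB2 (ENSG00000134574.12) lies on chromosome 11 from 47214465 to 47239217, plus strand. Its PHF20L1 peak ran from 47214356 to 47214773 and was 418 bp wide, at percentile 72.8 of the PHF20L1 list, whose median was 314 bp. It began 109 bp upstream of the outermost TSS and ended 308 bp downstream, with its centre at position 100. It held 2 of the 14 annotated TSSs, and 2 of 16 transcripts start in it. The canonical TSS of the annotation, at 47214974, lay beyond the peak, whose centre was at -410 from it. Exons covered 210 bp of the peak. No PHF20 peak overlapped it, and the gap from the peak to the nearest PHF20 peak was 33838 bp. That PHF20 peak, from 47248611 to 47249566 and 956 bp wide, contained a TSS of NR1H3. It lay 10.8 kb from the last annotated TSS of DDB2.

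A PHF20L1 promoter peak without one of PHF20 was rare in the series. It was found at 19 of the 766 protein-coding genes with a PHF20L1 promoter peak, and 17 distinct peaks accounted for them. None of the 17 was wider than the DDB2 peak, which also had the largest width among the 41 PHF20L1 peaks without PHF20 overlap, where the median was 240 bp. The genes of this kind with the closest widths were ZMYND8, with 410 bp on chromosome 20, and CCT4 and COMMD1, which share 1 peak of 408 bp on chromosome 2. For these the nearest PHF20 peak was 647442 bp and 123406 bp away.

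**Figure D1:**
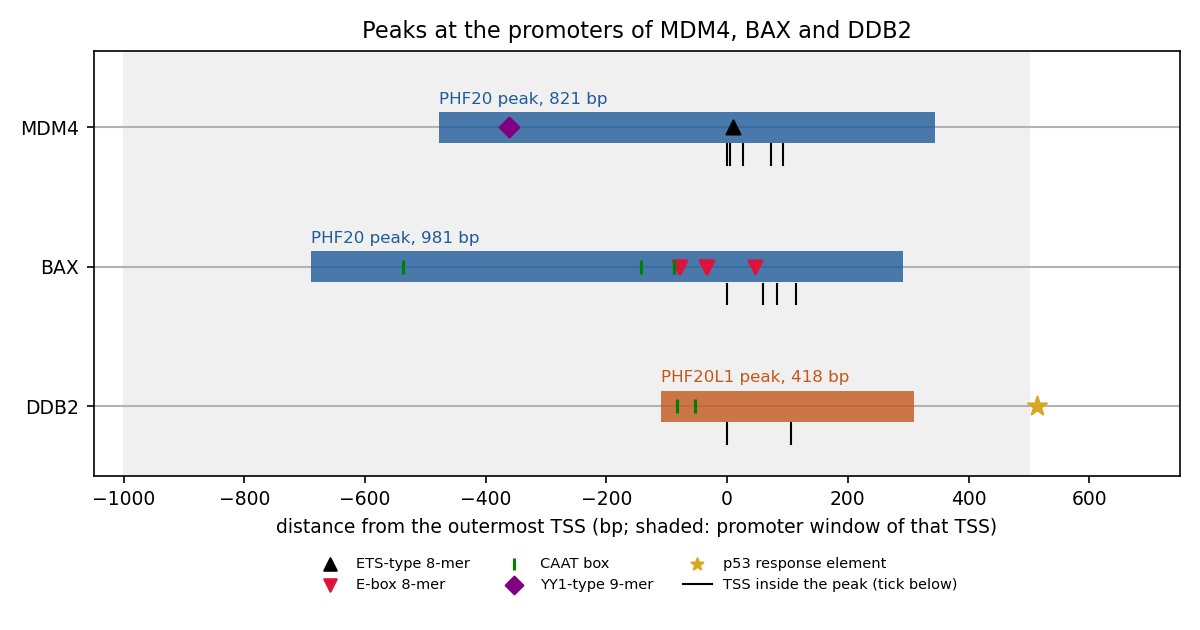
Peaks at MDM4, BAX and DDB2 drawn to scale against the distance from each gene's outermost TSS (bp), with bars for the peaks of PHF20 (blue) and PHF20L1 (orange), ticks for annotated TSSs inside the peak and symbols for motif matches. The BAX peak holds E-box 8-mers at 3 places around the TSS, the MDM4 peak 1 ETS-type 8-mer, and the DDB2 peak ends 206 bp before the p53 response element.

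**Figure D2:**
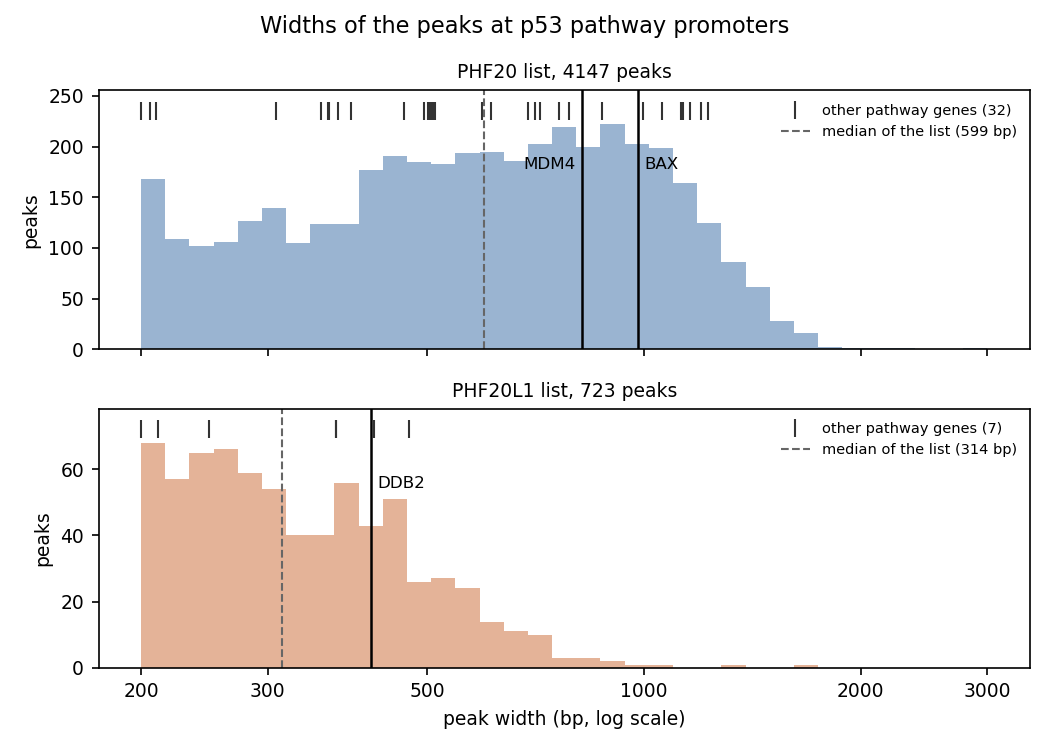
Number of peaks by width (bp, log scale) in the PHF20 list (top) and the PHF20L1 list (bottom), with solid lines for the peaks of MDM4 (821 bp), BAX (981 bp) and DDB2 (418 bp), a dashed line for the list median and short marks for the widest peak of each other pathway gene. All 3 lie above the median of their list.

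The motif search used both strands and covered 9 motifs, and in addition the single unit of the last of them. The motifs were ACTTCCGG, CACGTGAC, the E-box core CACGTG that it contains, the cAMP response element TGACGTCA, the GC box CCGCCC, the CAAT box CCAAT, the NRF1-type sequence TGCGCATGC, the YY1-type GATGGCGGC and the p53 response element. The first 2 were known from earlier results to be frequent in these peaks. A match is a run of letters and not a site shown to be bound.

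CACGTGAC had 5 matches in the BAX peak, at 3 places. The palindromes at -80 and -35 count on both strands, and the last match was at 46. Of 4147 PHF20 peaks, 3 (0.0723%) held as many or more, the BAX peak included. Peaks were compared whole, and the BAX peak, at percentile 81.1 of width, was longer than most. Within 250 bp of the centre, CACGTGAC was present in 5.76% of PHF20 peaks. Over a shorter stretch, the 300 bp from -250 to 50 of the outermost TSS, it was found in 2.87% of all protein-coding promoters. The share there was 5.79% in genes with a PHF20 promoter peak and 2.09% in genes with neither protein. Among the 9 promoters it occurred at BAX alone. The core CACGTG, without the flanking letters, also occurred at 15 in BAX and, in this window, at -133 in BBC3, which had no peak. The share of all promoters with the core was 8.37%.

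ACTTCCGG, the letters bound by ETS factors such as GABPA and ELK1, occurred 1 time in the MDM4 peak, at 10 from the outermost TSS. It was present within 250 bp of the centre of 15.6% of PHF20 peaks and of 22.1% of PHF20L1 peaks. Over the shorter stretch of 300 bp at the outermost TSS, 5.11% of all promoters had it. Of genes with a PHF20 promoter peak 13.2% had it there, and of genes with neither protein 2.98%. No other member had it over these 300 bp or over the 1500 bp from -1000 to 500. The YY1-type GATGGCGGC in the MDM4 peak, at -362, lay more than 250 bp from the centre of the peak. At least 1 match anywhere in the peak was held by 5.14% of PHF20 peaks. The 1500 bp window held it in 4.01% of all protein-coding genes. The share was 6.44% in genes with a PHF20 promoter peak and 3.37% in genes with neither protein. The BAX peak held neither.

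The DDB2 peak held none of ACTTCCGG, CACGTGAC, CACGTG or the GC box. Its matches were CAAT boxes at -83 and -53, and 4.84% of PHF20L1 peaks held as many or more. Here too peaks were compared whole, and the DDB2 peak was wider than the list median. At least 1 CAAT box was present in 7209 of 20033 promoters over 300 bp, and 7 of the 9 members had one there. Around the canonical TSS 4 of the 9 had one, and the matches of DDB2, CDKN1A, TP53BP1 and BBC3 lay outside that window. Neither TGACGTCA nor TGCGCATGC was found at any of the 9 genes in either window.

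The p53 response element, a pair of 10 bp units separated by 0 to 13 bp, was searched with no mismatch allowed. It was found in the promoter windows of 123 of 20033 protein-coding genes (0.614%) and at 1 of the 9, DDB2. The element has a spacer of 1 bp, shown in lower case, and is printed because it is the only such match among the 9 members:
DDB2 p53 element: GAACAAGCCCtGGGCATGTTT
It lies at chr11:47214979-47214999, in an annotated UTR, 5 bp past the canonical TSS and 514 bp past the outermost one. It was outside the PHF20L1 peak, with a gap of 206 bp. Across both peak lists the element was near the centre of 1 PHF20 peak and of 0 PHF20L1 peaks, and the peaks of MDM4, BAX and DDB2 did not hold it. A single 10 bp unit did occur in the BAX peak, at -360. Over the 1500 bp from -1000 to 500 of the outermost TSS, single units were also found at CDKN1A, BBC3 and WRAP53. Such a unit was present in this window in 28.9% of all protein-coding genes. Elements with mismatches, or outside the promoter windows, were not searched, so the absence of a match at CDKN1A, MDM2 or the other targets says only that these letters are not in these windows.

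TP53BP1, MDM2, CDKN1A, BBC3, GADD45A and WRAP53 had no peak. TP53BP1 (ENSG00000067369.14, chromosome 15, 43403061 to 43510728, minus strand), the double-strand break protein 53BP1, has 16 annotated TSSs. Its promoter windows together cover 13182 bp, at percentile 94.4 of protein-coding genes, where the median was 3700 bp. A large search area therefore held no call. The nearest PHF20 peak was 83 kb from a TSS of this gene, near LCMT2, and the nearest PHF20L1 peak was 1656 kb away.

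MDM2 (ENSG00000135679.27, chromosome 12, 68808177 to 68845544, plus strand) is itself a p53 target as well as its ligase. Its 17 TSSs run from 68808177 to 68843689, with windows of 8301 bp in all, and no window touched a peak. The nearest peaks of both proteins lay at the NUP107 promoter, 121 kb away. There the PHF20 peak was 949 bp wide and the PHF20L1 peak 254 bp.

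CDKN1A (ENSG00000124762.14, chromosome 6, 36676460 to 36687337, plus strand) encodes p21, the inhibitor of cyclin-dependent kinases that carries out p53-dependent arrest. Its 8 TSSs span 36676460 to 36678771. The nearest PHF20 peak, 251 bp wide, lay at SRSF3, 81.9 kb away, and the nearest PHF20L1 peak lay at PPIL1, 196 kb away.

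BBC3 (ENSG00000105327.18, chromosome 19, 47220822 to 47232766, minus strand) encodes PUMA, which activates BAX. The PHF20 peak nearest to it was 109 kb away, near SAE1, and the nearest PHF20L1 peak 5912 kb away. BBC3 and BAX act in 1 pathway, and PHF20 was called at BAX and not at BBC3. A gene without a call is the common case, as 20.7% of all protein-coding genes had a PHF20 promoter peak.

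GADD45A (ENSG00000116717.13, chromosome 1, 67685201 to 67688334, plus strand), a stress protein of growth arrest and repair, was the most isolated member for PHF20. Its nearest PHF20 peak, at SLC35D1, was 631 kb away, a gap at percentile 81.7 of the 15885 protein-coding genes without a PHF20 promoter peak. The median gap of those genes was 144 kb. For PHF20L1, GADD45A lay 2520 kb from a peak, against a median of 962 kb.

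WRAP53 (ENSG00000141499.18, chromosome 17, 7686071 to 7703502, plus strand) encodes a protein that guides telomerase RNA to Cajal bodies. None of its 13 TSSs had a peak. The nearest PHF20 peak lay at MPDU1, 102 kb away, and the nearest PHF20L1 peak near GABARAP, 443 kb away.

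**Figure D3:**
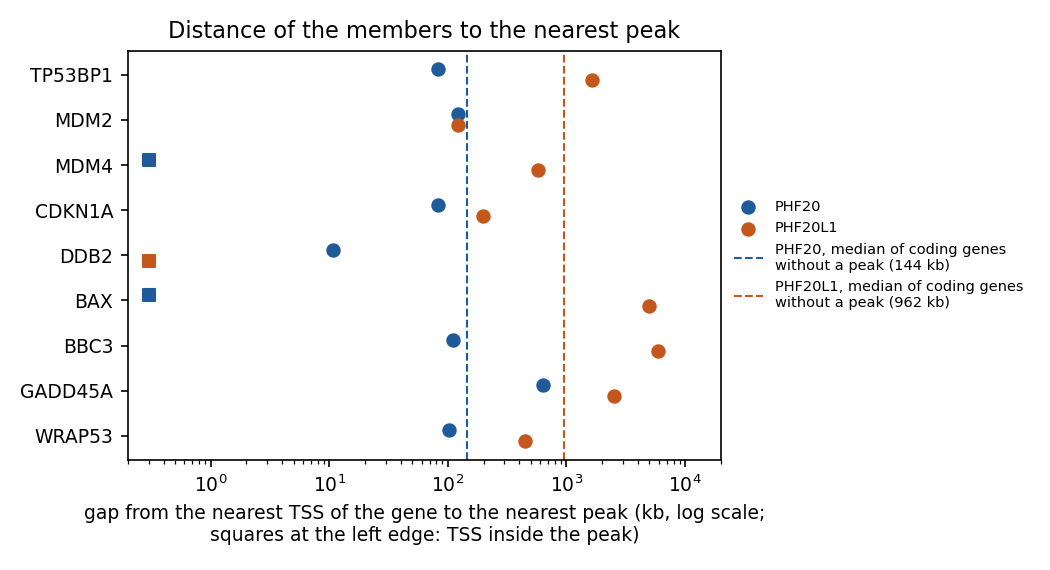
Gap from the nearest annotated TSS of each gene to the nearest PHF20 (blue) or PHF20L1 (orange) peak in kb on a log scale, with squares at the left edge where a TSS lies inside a peak and dashed lines for the median gap of protein-coding genes without a promoter peak (144 kb and 962 kb). Of the genes without a PHF20 peak, DDB2 is the closest to one, at 10.8 kb, and GADD45A the farthest, at 631 kb.

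The surroundings of the called genes also differed. Of the other protein-coding genes with an outermost TSS within 500 kb, PHF20 was called at 11 of 21 around DDB2. Around DDB2, PHF20L1 was called at KBTBD4, NDUFS3 and SLC39A13, each of which also had PHF20, and which are named after their values were seen. DDB2 thus had no PHF20 promoter peak in a region where many protein-coding genes had one. These are counts of genes, and genes can share a peak. Around MDM4, PHF20 was called at 0 of 10 genes, and around BAX at 6 of 56. Of the genes without a peak, TP53BP1 had 5 of 25 neighbours with PHF20, WRAP53 9 of 69, CDKN1A 4 of 16, BBC3 2 of 21, MDM2 1 of 6 and GADD45A 0 of 5. Over all 229 neighbours, PHF20 was called at 38 (16.6%) and PHF20L1 at 6 (2.62%), beside 20.7% and 3.82% of all protein-coding genes.

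The base content of the promoters is a property that the choice of genes did not use. Over the 300 bp around the outermost TSS, the ratio of observed to expected CpG had a median of 0.842 (interquartile range 0.682 to 0.952) in genes with a PHF20 promoter peak. In genes with neither protein it was 0.627 (0.269 to 0.853). The ratio was 0.706 at MDM4 and 0.945 at BAX, both within that range of PHF20 genes at this TSS. At DDB2 it was 0.579, under the lower quartile of 0.670 for genes with PHF20L1. GC content was 50.8% at MDM4, 60.8% at BAX and 58.8% at DDB2.

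Several members without a peak were as rich in CpG as those with one. WRAP53 had a ratio of 0.978 and MDM2 of 0.947, both over the median of PHF20 genes, and TP53BP1 had 0.695 and GADD45A 0.621. The low ratios of CDKN1A (0.0787) and BBC3 (0.321) belonged to outermost TSSs that lie 2254 bp and 1567 bp from the canonical ones. At the canonical TSS, a choice made after this was seen, CDKN1A had 0.744 and BBC3 0.982, beside an interquartile range of 0.778 to 0.985 for genes with a PHF20 peak. Both called PHF20 members then lay outside that range, MDM4 below it and BAX above it with 1.17. At either TSS, the ratios of the members with and without a peak overlapped.

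**Figure D4:**
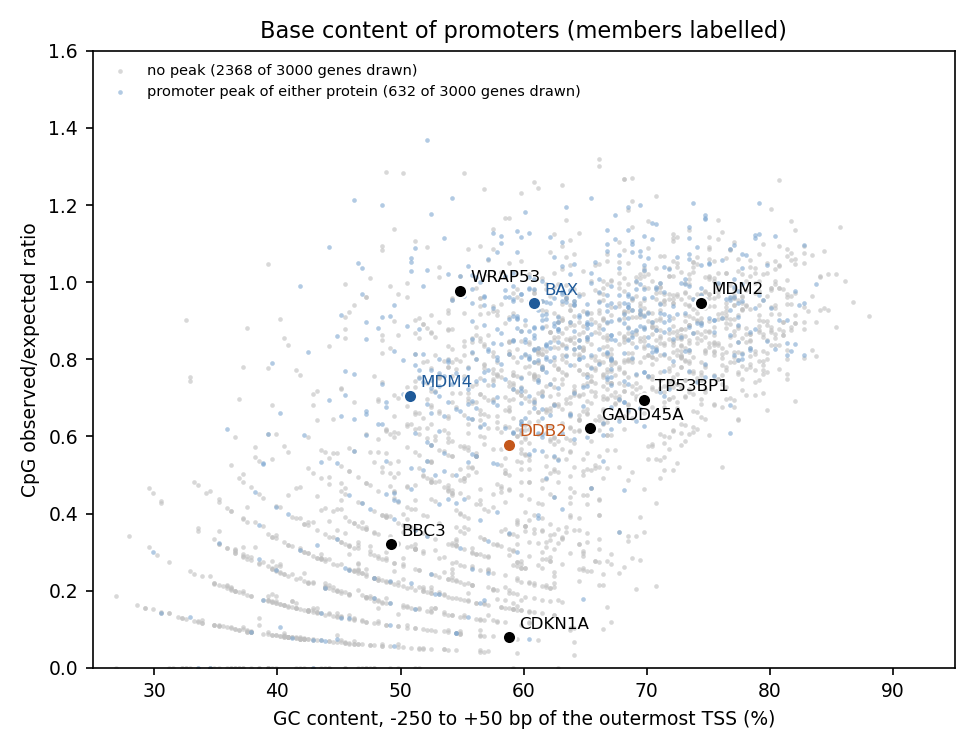
GC content (percent) against the observed/expected CpG ratio over the 300 bp around the outermost TSS, for 3000 protein-coding genes drawn at random (light blue with a promoter peak of either protein, grey with none) and the 9 members labelled (blue PHF20, orange PHF20L1, black no peak). WRAP53 (0.978) and MDM2 (0.947), without a peak, lie as high as BAX (0.945).

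A wider set of 104 genes of the p53 and 53BP1 pathways, in 6 lists by role, was examined beside the members. It was put together with earlier results of these data known, so its counts are a description. PHF20 was called at 32 of the 104 genes (30.8%, Wilson 95% interval 22.7% to 40.2%), against 20.7% of all protein-coding genes. With only peaks no narrower than the list median, the shares were 13.5% and 12.1%. PHF20L1 was called at 7 (6.73%, 3.30% to 13.2%), against 3.82%. All 7 also had PHF20, and 72 genes had neither, so DDB2 alone, among members and listed genes together, had PHF20L1 without PHF20. The median width of the widest PHF20 promoter peak was 511.5 bp in these 32 genes and 682 bp in all genes with one. The MDM4 and BAX peaks were wider than both.

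Among the modifying enzymes and stability regulators of p53, the longest list, PHF20 was called at 13 of 35 genes, and 4 of these also had PHF20L1. The called genes included ribosomal proteins as well as enzymes. The widest PHF20 peaks of the list were at SIRT1, a deacetylase of p53 (1199 bp), PSME3, a proteasome activator subunit that aids MDM2 (1127 bp, promoter peaks shared with BECN1), and RPL23, a ribosomal protein that binds MDM2 (997 bp). Both proteins were called at PSME3 and RPL23 and also at KAT5 and EHMT1. KAT5 is the acetyltransferase TIP60, and EHMT1 the methyltransferase GLP. The PHF20L1 peaks there were 421, 211, 373 and 200 bp wide, respectively.

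Among the partners of 53BP1 in double-strand break signalling, 5 of 15 genes had PHF20 and 2 had PHF20L1. SHLD3, a shieldin subunit, had a PHF20 peak of 1159 bp and a PHF20L1 peak of 472 bp, in a promoter region that TRAPPC13 and TRIM23 share. TOPBP1, a checkpoint scaffold, had 1059 bp and 373 bp. RIF1, the 53BP1 effector that limits end resection, had a PHF20 peak of 595 bp and none of PHF20L1. The gene of 53BP1 itself had neither, as described above.

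Of the p53 targets outside the members, PHF20 was called at 2 of 10 in cell cycle arrest, 3 of 13 in apoptosis and 3 of 15 in repair and metabolism. These shares were near the background of 20.7%. GTSE1 (510 bp) and GDF15 (210 bp) were the arrest targets with a peak. In apoptosis the peaks were at TRIAP1 (1226 bp, shared with GATC), PIDD1 (364 bp) and SHISA5 (200 bp). The promoter peaks of PIDD1 also reached the promoter window of RPLP2, a ribosomal protein gene. PIDD1, the scaffold of the PIDDosome, was the only one of these targets with PHF20L1, in a peak of 249 bp. In repair and metabolism the peaks were at FDXR (761 bp), PRKAB1 (705 bp) and XPC (365 bp, shared with LSM3). XPC recognizes lesions in nucleotide excision repair downstream of DDB2.

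Among paralogues and protein partners of the members, PHF20 was called at 6 of 16 genes and PHF20L1 at 0, which is a Wilson interval of 0 to 19.4%. GAR1, a subunit of the telomerase ribonucleoprotein that WRAP53 escorts, had a PHF20 peak of 1134 bp. The apoptosis inhibitor BCL2L1, which restrains BAX, had 875 bp. DDB1, the obligate partner of DDB2, carried PHF20 on chromosome 11 from 61332745 to 61333461, a width of 717 bp, and no PHF20L1 peak. The subunits of 1 complex, DDB1 and DDB2, were thus called for different proteins. The lack of a PHF20L1 peak at DDB1 is the common case, as 3.82% of all protein-coding genes had one at a promoter. A gene without PHF20, as DDB2 was, is also common, since 20.7% of all protein-coding genes had a PHF20 promoter peak. Among genes with PHF20L1 it was rare, as described above. The PHF20 peak of DDB1 also reached the promoter window of TKFC. Such sharing with another protein-coding gene was seen for 8 of the 32 listed genes with PHF20 and for 38.2% of all protein-coding genes with it. It was seen for 0 of the 2 members with PHF20. For PHF20L1 it was seen for 0 of 1 member, beside 41.4% of all protein-coding genes with that protein.

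**Figure D5:**
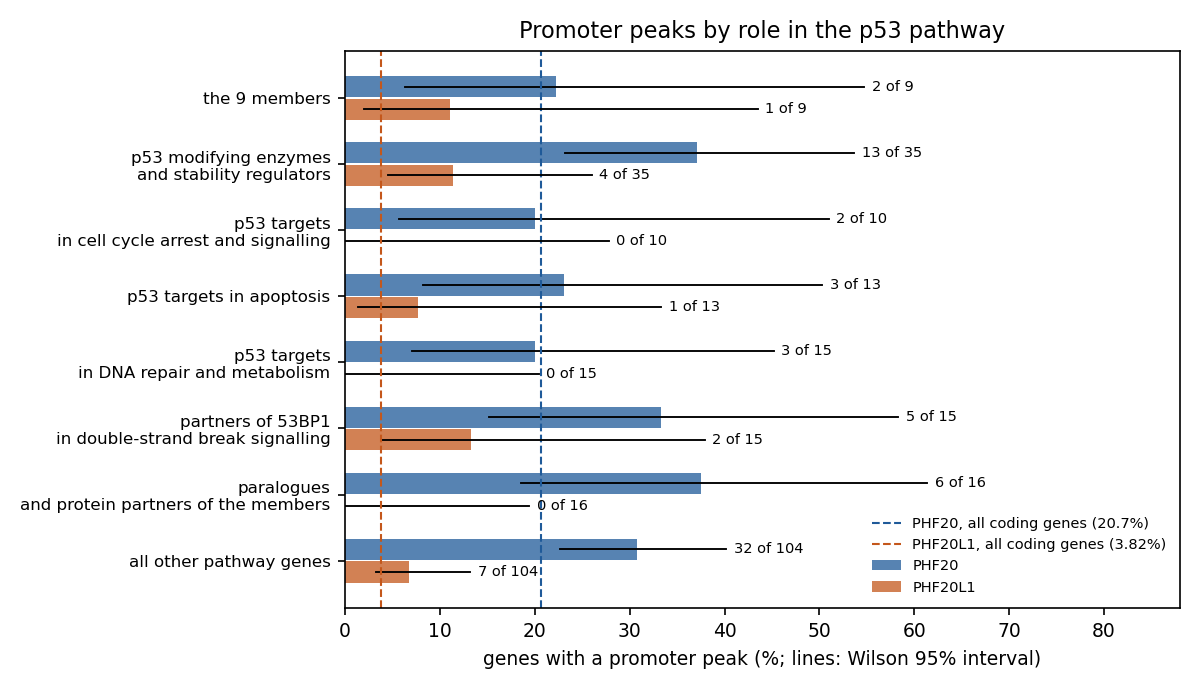
Percent of genes with a promoter peak of PHF20 (blue) and PHF20L1 (orange) among the 9 members and in 6 lists of pathway genes, with Wilson 95% intervals as lines, counts beside them and dashed lines for all protein-coding genes (20.7% and 3.82%). The members (2 of 9) and the target lists lie near the PHF20 background. The modifying enzymes and stability regulators (13 of 35), partners of 53BP1 (5 of 15) and paralogues and partners (6 of 16) have higher PHF20 shares. Their intervals are 23.2% to 53.7%, 15.2% to 58.3% and 18.5% to 61.4%, respectively, and the last 2 include the background. The lists were put together with earlier results known. Whether an interval includes the background is therefore a description and no test.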

How the data were processed

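Per the labels and the methods, the authors used Bowtie 1.1.2 for mapping to hg38, kept uniquely mapped reads and a single copy of duplicates, and called peaks with MACS2 2.2.7.1 against input, without blacklisted regions. A PHF20 replicate with few peaks was removed by them. The final peaks came from the best replicate and had to overlap those of the other replicates. Each deposited list combines the libraries of a protein, and its values are start and end positions, given here counted from 1. Library depth is not held in the lists.

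Peaks were compared with GENCODE release 44 on the hg38 sequence, in Python 3.11.15 with numpy 2.4.6, scipy 1.17.1, pysam 0.24.0 and matplotlib 3.10.9. The overlap and motif steps were tested on simulated data with known answers. The members, lists and motifs were chosen with earlier results of these data known. The genes named are the members, the genes nearest to their closest peaks, listed pathway genes with both proteins or with the 3 widest PHF20 peaks of their list, and the 3 genes most like DDB2. Alternatives were other TSS sets, windows, placements, peak widths and overlap rules. The gene of p53 itself is not reported here.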

Additional observations from a re-analysis of the deposited data

How the results depend on the processing

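The calls at MDM4, BAX and DDB2 were the same under all 8 other promoter settings. These were the outermost TSS, coding transcripts, windows of 500 or 2500 bp on both sides, peak centres and an overlap of at least 50%. The last were peaks of at least 300 bp and peaks no narrower than the median. Only the window of 2500 bp could add a call, because the other settings narrow the main rule. It added none at the other 6 genes. The width limits could not remove the calls at MDM4, BAX and DDB2, whose peaks were wider than both limits. With 0 shared regions, both stricter overlap rules also gave 0. Counts of other genes fell by over 1.5 times only with the width limits, by their construction. With peaks of at least 300 bp, PHF20L1 was called at 4 listed pathway genes and at 455 protein-coding genes. Under the median width limit, PHF20 was called at 14 and 2416 (13.5% and 12.1%), and PHF20L1 at 4 and 423 (3.85% and 2.11%). Of 18 alternative motif counts at the 9 promoters, 12 stayed within 1.5 times and 6 did not. At the canonical TSS, an alternative chosen after seeing the data, the CAAT box was found at 4 members in place of 7, the GC box at 7 in place of 4, the core CACGTG at 1 in place of 2 and the p53 element at 1 in place of 0. Over the 1500 bp window, the GC box was found at 7 members and GATGGCGGC at 1 in place of 0.

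The lists hold no depth and no peak height, so weak binding below the authors' thresholds could not be examined. No paired analysis was possible because each protein has 1 list made from all its replicates, with no replicate numbers in it.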
